A study of Homo sapiens with 18 samples.

Results

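After CHD9 depletion in cells that contained Hic-5, the strongest GR binding regions were still called. About as many control regions lost their call as kept it. GR binding regions (GBR) were compared between U2OS-GRα cells treated with a control siRNA (siNS/siNS) and cells depleted of CHD9 (siCHD9/siNS). A siNS/siNS GBR was called lost if no siCHD9/siNS GBR shared at least 1 bp with it and kept if one did, and a siCHD9/siNS GBR with no siNS/siNS GBR under it was called new. Of the 2582 siNS/siNS GBR, 1327 were lost (51.4%, 95% Wilson interval 49.5 to 53.3%) and 1255 were kept. Of the 1415 siCHD9/siNS GBR, 158 were new (11.2%, 9.63 to 12.9%) and 1257 overlapped the control list. These shares depended on list length, since at equal list size 28.6% were lost and 28.4% were new. Equal list size makes the 2 shares nearly equal by construction. These 2 lists hold 3997 of the 20642 GBR of the series.

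U2OS is an established osteosarcoma cell line, and the U2OS-GRα line is a stable transformant that expresses the α form of the glucocorticoid receptor (GR). Both groups received siRNA 48 h before 100 nM dexamethasone (dex, a synthetic glucocorticoid) for 1 h, so all libraries compared here are hormone treated. The control cells received the nonspecific siRNA siNS alone, and the depleted cells received siCHD9 together with siNS so that the mass of siRNA was equal. Each group had 2 GR ChIP-seq libraries, made on different days, and 1 input library. The authors pooled the replicates of each group into 1 peak list and filtered it with the IDR framework, which weighs how well peaks recur between replicates, at a threshold not given in the sources used here. There was therefore no spread between replicates to set against a difference, and no p-value is given. The intervals cover counting error between GBR of these lists, and GBR are not replicates of a condition. The lists hold neither read depth nor the levels of CHD9, Hic-5 or cell markers, so the extent of the depletion could not be checked.

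GR is a nuclear receptor that moves into the nucleus on binding hormone and attaches to DNA at glucocorticoid response elements (GRE), palindromes of 2 half-sites, or through other DNA-bound factors. CHD9 belongs to the CHD family of ATP-dependent remodelers, which move nucleosomes, and Hic-5 (TGFB1I1) is a coregulator of GR related to the focal adhesion protein paxillin. AP-1 is a dimer of FOS and JUN family proteins that is known to hold chromatin accessible at many sites where GR binds.

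Sequences of 8 strong GBR are shown so that the 2 motifs counted over all GBR can be seen in place. They are examples, and the strongest GBR do not mirror the shares over all GBR. For 2 lost, 2 kept and 3 new GBR among the strongest outside UTRs, and for the strongest kept GBR of FKBP5, the 201 bases centered on the summit are printed from the + strand of GRCh38. Capitals mark 2 motifs. One is the GRE core, read as GNACA, then 3 bases of any kind, then TGTNC, and the other is the AP-1 motif TGANTCA.
lost, ZHX3 intron, chr20:41248716-41248916: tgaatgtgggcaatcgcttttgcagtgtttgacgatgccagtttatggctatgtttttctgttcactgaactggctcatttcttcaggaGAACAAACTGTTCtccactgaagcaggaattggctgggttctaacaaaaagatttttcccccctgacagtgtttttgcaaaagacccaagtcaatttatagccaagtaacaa
lost, near CDH26, chr20:60078751-60078951: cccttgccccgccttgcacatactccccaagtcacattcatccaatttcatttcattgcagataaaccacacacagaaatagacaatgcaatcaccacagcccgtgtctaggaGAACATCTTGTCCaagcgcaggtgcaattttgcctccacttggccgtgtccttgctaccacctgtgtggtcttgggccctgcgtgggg
kept, near CDKN2AIPNL, chr5:134466451-134466651: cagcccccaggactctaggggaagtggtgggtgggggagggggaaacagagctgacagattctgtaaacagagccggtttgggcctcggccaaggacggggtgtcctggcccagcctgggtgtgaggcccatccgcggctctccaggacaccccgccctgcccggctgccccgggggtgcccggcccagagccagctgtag
kept, near OTOS, chr2:240251425-240251625: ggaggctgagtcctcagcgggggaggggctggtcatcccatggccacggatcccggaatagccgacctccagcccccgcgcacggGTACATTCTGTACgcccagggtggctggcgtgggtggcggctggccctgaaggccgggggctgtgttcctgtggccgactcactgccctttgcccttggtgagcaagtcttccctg
kept, FKBP5 intron, chr6:35728031-35728231: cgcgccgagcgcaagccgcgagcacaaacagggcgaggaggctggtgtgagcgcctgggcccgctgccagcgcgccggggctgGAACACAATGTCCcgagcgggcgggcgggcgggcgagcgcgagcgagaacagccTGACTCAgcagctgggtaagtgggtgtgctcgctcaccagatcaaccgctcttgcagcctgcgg
new, near TMEM270, chr7:73895009-73895209: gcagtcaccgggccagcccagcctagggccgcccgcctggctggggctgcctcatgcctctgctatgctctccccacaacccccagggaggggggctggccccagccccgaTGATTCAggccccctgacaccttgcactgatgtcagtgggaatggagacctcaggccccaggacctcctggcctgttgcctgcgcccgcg
new, near SYT7, chr11:61603140-61603340: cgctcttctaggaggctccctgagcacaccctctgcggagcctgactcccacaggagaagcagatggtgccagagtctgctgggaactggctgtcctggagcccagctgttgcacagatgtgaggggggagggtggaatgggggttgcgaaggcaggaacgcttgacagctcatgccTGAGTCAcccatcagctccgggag
new, near DKK1, chr10:52541277-52541477: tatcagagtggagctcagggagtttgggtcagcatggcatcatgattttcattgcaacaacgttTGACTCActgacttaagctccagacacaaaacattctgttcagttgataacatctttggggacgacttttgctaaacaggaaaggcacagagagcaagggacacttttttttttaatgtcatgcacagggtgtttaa
Both lost sequences hold a GRE core and no AP-1 motif. The new sequences hold an AP-1 motif each and no GRE core. The kept sequences are mixed, since the GBR near CDKN2AIPNL shows neither motif, the GBR near OTOS shows a GRE core alone, and the FKBP5 GBR shows both, the AP-1 motif lying 40 bp from the summit.

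Peak strength, taken as the −log10 p-value that the authors obtained from MACS2 and read only within a list, separated lost from kept GBR. The median −log10 p was 16.9 for lost GBR (quartiles 14.4 and 21.1) and 34.1 for kept GBR (22.0 and 52.8), both in siNS/siNS. New GBR had a median of 13.5 in siCHD9/siNS (12.4 and 16.3), where the GBR shared with the control list had 20.6 (15.0 and 32.6). The siNS/siNS GBR were divided by −log10 p into 5 strength groups of equal size. From the weakest group to the strongest, 82.0%, 77.3%, 64.2%, 29.1% and 4.45% were lost. None of the 100 strongest siNS/siNS GBR was lost (upper Wilson bound 3.70%), and 1 of the 250 strongest was. The new GBR were concentrated in the same way, with 28.3% of the weakest of 5 groups of siCHD9/siNS GBR new and 0 of the 283 strongest (upper bound 1.34%). Lost GBR were also narrower, with a median width of 404 bp against 500 bp for kept GBR.

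**Figure D1:**
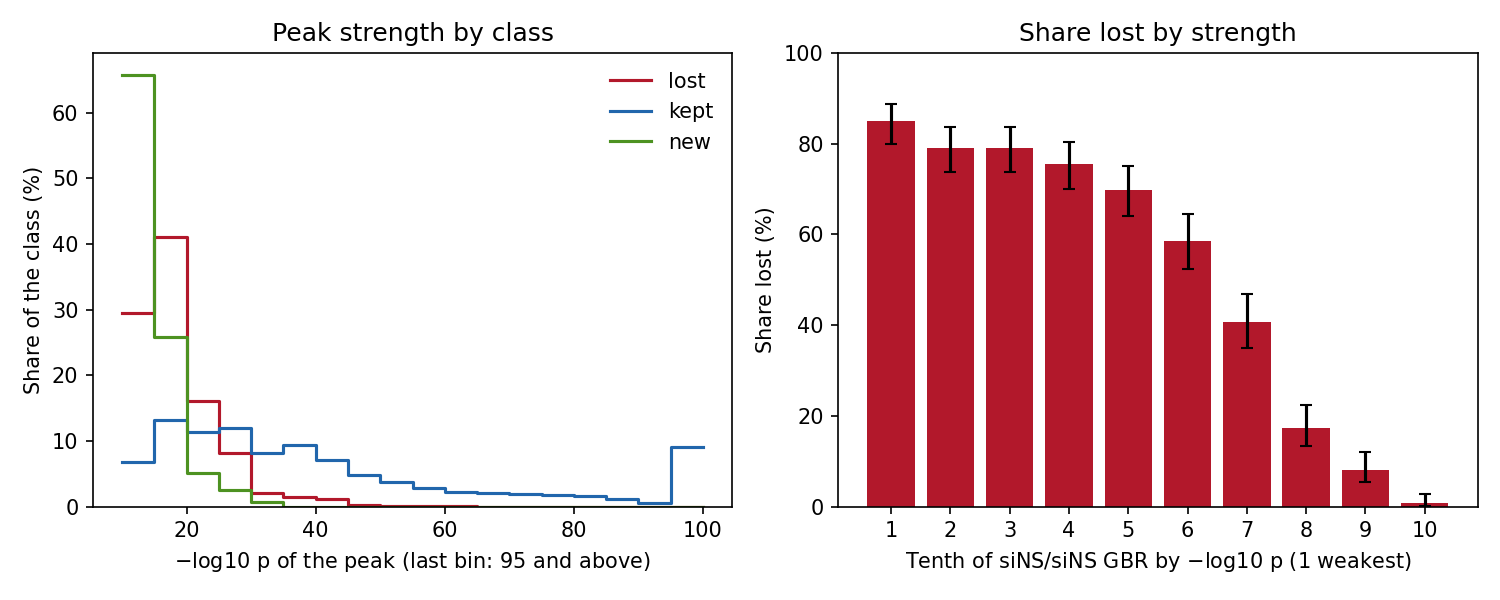
Left, share of the lost and kept GBR (siNS/siNS list) and of the new GBR (siCHD9/siNS list) in bins of −log10 p. Right, share of siNS/siNS GBR lost in 10 groups of equal size by −log10 p, with 95% Wilson intervals, which falls from 84.9% in the weakest group to 0.772% in the strongest.

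Peak numbers in the names of the GBR ran up to 6994 in siNS/siNS and 3895 in siCHD9/siNS, so fewer peaks were numbered after CHD9 depletion before the IDR step as well. Because the siCHD9/siNS list is the shorter one, a lost GBR can be one that fell under the limit of that list. With the control list cut to its 1415 strongest GBR, as many as siCHD9/siNS holds, 28.6% were lost (26.3 to 31.0%) and 28.4% of the siCHD9/siNS GBR were new (26.1 to 30.8%). The overlap itself was seldom near its limit. The smallest overlap of a kept GBR was 219 bp, and the lost GBR closest to a siCHD9/siNS GBR lay 181 bp from it. Only 138 lost GBR (10.4%) had a siCHD9/siNS GBR within 10 kb.

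AP-1 motifs were the sequence feature that differed most between the classes. Within 1 kb centered on the summit, TGANTCA was present at 55.5% of kept GBR (52.8 to 58.3%) but at 40.2% of lost GBR (37.6 to 42.8%), a difference of -15.4 percentage points (95% Newcombe interval -19.1 to -11.5). At new GBR the share was 75.9%, which is 20.0 points (12.3 to 26.6) above the siCHD9/siNS GBR shared with the control list. Windows of the same length 5 kb to either side of these GBR held the motif at 27.8%. The flanks did not share the order, with 29.3% beside lost, 27.1% beside kept and 23.4% beside new GBR. In the 200 bp around the summit the shares were 16.0% for lost, 30.4% for kept and 47.5% for new GBR, against 6.48% in the flanks.

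**Figure D2:**
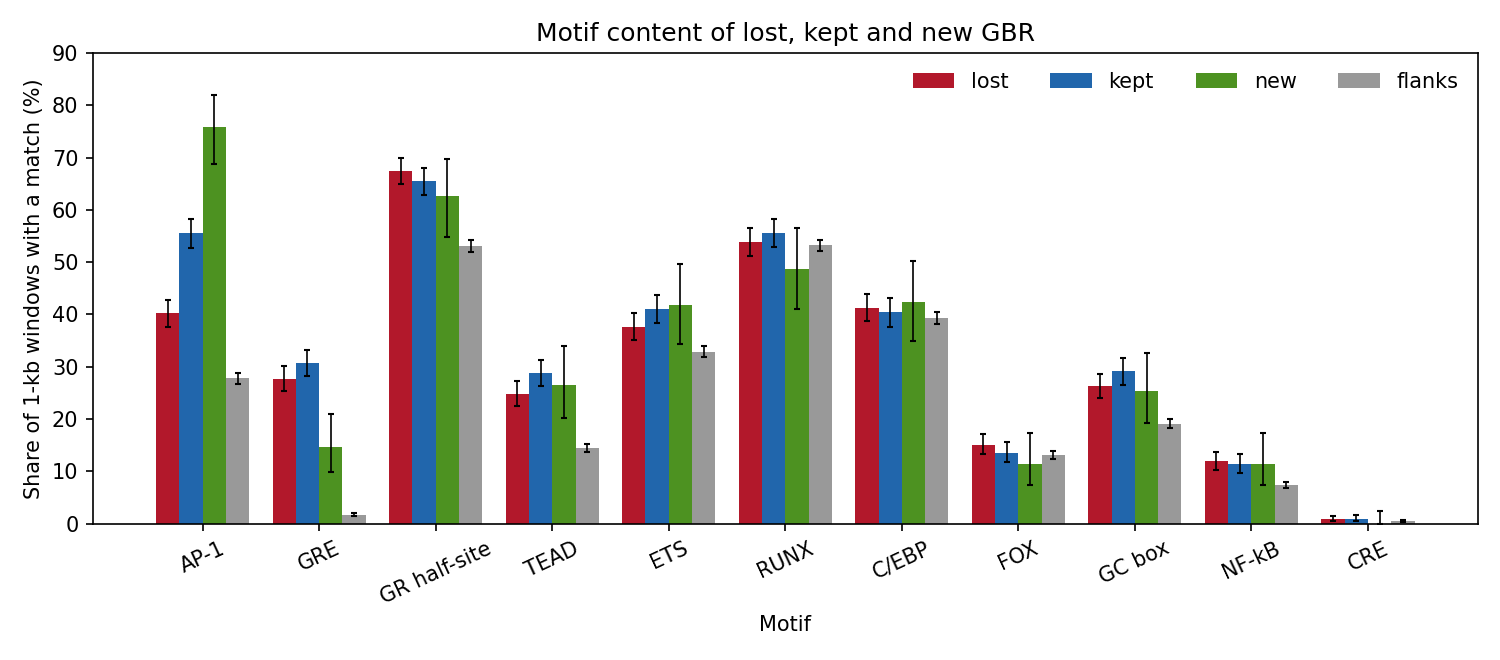
Share of 1-kb windows with at least 1 match to each of 11 motifs at lost, kept and new GBR and in windows 5 kb to either side of all GBR (flanks), with 95% Wilson intervals. AP-1 rises from lost to kept to new, and GRE is lowest at new GBR among the 3 classes.

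The difference in AP-1 was also present at equal strength. The common odds ratio over the 5 strength groups (Mantel-Haenszel) was 0.404 for an AP-1 motif in lost against kept GBR (0.331 to 0.494), and the interval widened for the 11 motifs compared was 0.303 to 0.540. For new GBR against the shared siCHD9/siNS GBR it was 2.64 (1.77 to 3.94, widened 1.48 to 4.71). In each strength group the GBR with an AP-1 motif were lost less often. In the weakest group 176 of 246 GBR with the motif were lost (71.5%) and 247 of 270 without it (91.5%). In the third group the shares were 52.7% and 72.9%, and in the strongest group 2.42% and 6.32%. The share lost also fell with the number of AP-1 motifs in the window, from 58.7% with none to 46.4% with 1, 37.2% with 2 and 32.1% with 3 or more. Both spellings of the motif followed the order of the classes, with TGACTCA at 28.8%, 43.7% and 59.5% of lost, kept and new GBR and TGATTCA at 16.2%, 19.4% and 32.3%.

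**Figure D3:**
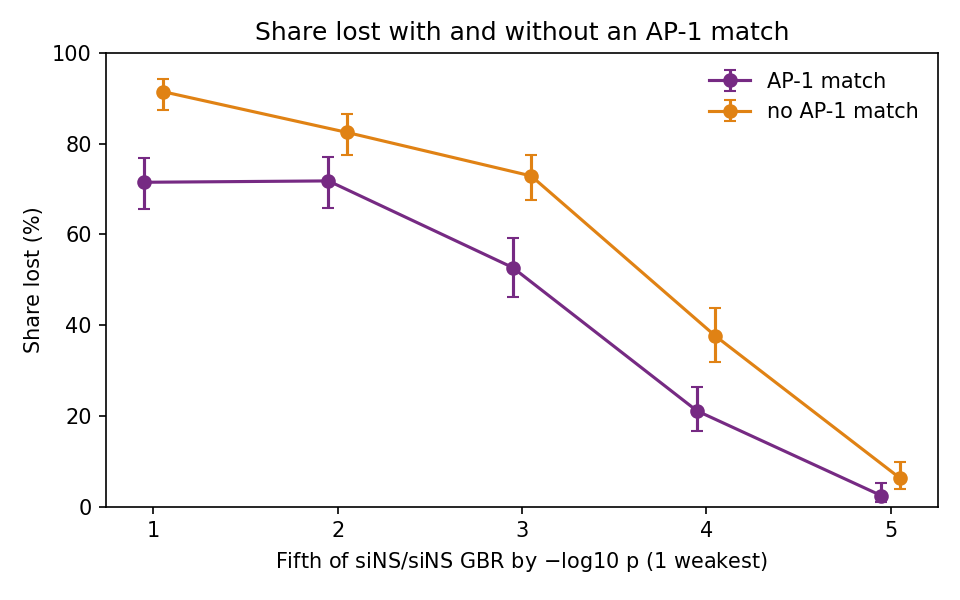
Share of siNS/siNS GBR lost in 5 groups of equal size by −log10 p, for GBR with and without TGANTCA in 1 kb around the summit; bars are 95% Wilson intervals. GBR with the motif lie lower in every group, at 71.5% against 91.5% in the weakest and 2.42% against 6.32% in the strongest.

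AP-1 motifs also lay nearer the summit where GBR were kept. The median distance of the nearest motif to the summit was 134 bp at lost GBR with a motif (quartiles 52 and 269), 88 bp at kept GBR (35 and 197) and 76 bp at new GBR (41 and 141). In the profile around the summit, matches at kept GBR reached 2.75 per kb in the bin centered 30 bp to one side of the summit and dipped to 1.63 at the summit itself. GRE cores sat on the summit instead, at a median of 17.5 bp for lost, 12 bp for kept and 9 bp for new GBR.

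**Figure D4:**
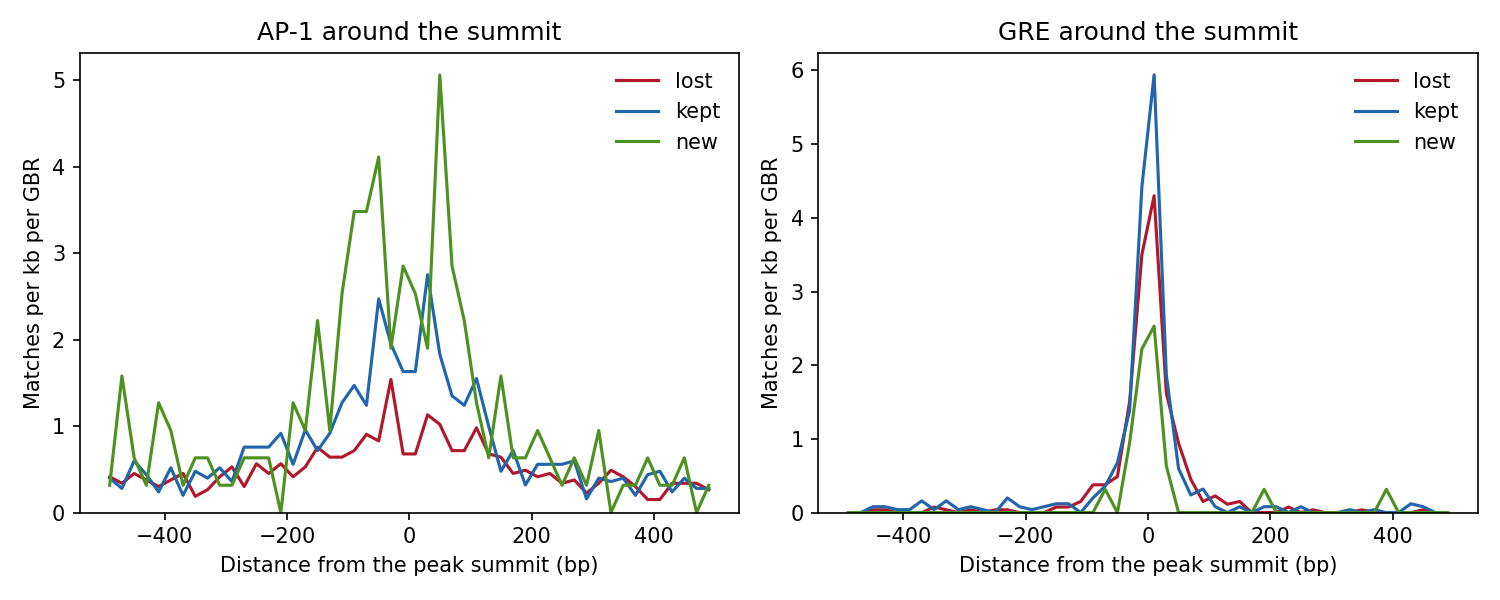
Matches per kb per GBR in 20-bp bins along the distance from the peak summit, for AP-1 (left) and the GRE core (right) at lost, kept and new GBR. AP-1 flanks the summit, highest at new GBR, and GRE cores peak at the summit, reaching 5.94 at kept, 4.30 at lost and 2.53 at new GBR.

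GRE cores gave another order. They were found within 1 kb at 27.7% of lost GBR and 30.7% of kept GBR, a difference of -2.95 points (-6.45 to 0.561), and at 14.6% of new GBR, against 1.65% of flanking windows. New GBR held fewer GRE cores than the shared siCHD9/siNS GBR, by -16.2 points (-21.6 to -9.42) and with a common odds ratio of 0.462 (0.287 to 0.744). At equal strength the core was more frequent in lost than in kept GBR, with an odds ratio of 1.39 (1.11 to 1.73, widened 1.01 to 1.91). In the 200-bp window it was 1.34 (1.07 to 1.68), and the widened interval, 0.968 to 1.86, included 1. Without regard to strength, the 200-bp difference lay on the other side, at -3.64 points (-7.09 to -0.185). The GRE was also read as the perfect palindrome of 12 half-site bases with at most 2 mismatches. The 1-kb odds ratio was then 1.19 (0.963 to 1.46) for lost against kept GBR and 0.704 (0.472 to 1.05) for new GBR. Both odds ratios thus depend on the pattern. Without regard to strength, new GBR still held fewer by this reading, at 24.7% against 33.7%, a difference of -8.97 points (-15.6 to -1.26). Combining the motifs, 40.4% of siNS/siNS GBR with GRE and AP-1 were lost, 44.4% with AP-1 alone, 55.6% with GRE alone and 60.2% with neither. Of the new GBR, 64.6% held AP-1 without a GRE core, a class that made up 39.8% of kept and 30.1% of lost GBR.

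The other 9 motifs separated lost from kept GBR less or not detectably. TEAD (GGAATGT), which binds YAP and TAZ, was at 24.8% of lost and 28.8% of kept GBR, with an odds ratio of 0.764 (0.614 to 0.95) whose widened interval, 0.557 to 1.05, includes 1. The ETS motifs (CCGGAAG or CAGGAAG) were at 37.7% of lost, 41.0% of kept and 41.8% of new GBR, with an odds ratio of 0.854 for lost against kept (0.701 to 1.04). For the GR half-site (TGTTCT), RUNX (TGTGGT), C/EBP (TTGCNNAA), FOX (TGTTTAC), the GC box (GGGCGG), NF-kB and CRE (TGACGTCA), the 95% intervals of lost against kept in the 1-kb window included 1. In the 200-bp window the GC box was at 9.65% of lost and 12.7% of kept GBR, a difference of -3.02 points (-5.47 to -0.595). Its odds ratio at equal strength there was 0.800 (0.584 to 1.09). New GBR held fewer GR half-sites in the 200-bp window than the shared siCHD9/siNS GBR, at 26.6% against 39.2%, a difference of -12.6 points (-19.5 to -4.79) with an odds ratio of 0.564 (0.382 to 0.832, widened 0.321 to 0.991). In the 1-kb window that odds ratio was 0.825 (0.574 to 1.19). The pattern TGTTCT can form part of a GRE core. All motifs were searched on both strands, and a match is a string of letters and not a bound factor. Median GC content was close in the classes, at 46.7% in lost, 48.2% in kept and 47.0% in new 1-kb windows.

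The strongest GBR of each class are given by the gene that holds them or by the nearest protein-coding TSS, as stated, and neither need be the regulated gene. The strongest lost GBR ranked 250 in siNS/siNS with a −log10 p of 61.1 and is intergenic, nearest to KTN1 (kinectin, an anchor for the motor kinesin). The second, chr20:41248568-41249093, ranked 257 and lies in an intron of ZHX3, a zinc finger and homeobox protein. Its GRE matches all 12 half-site bases of the palindrome, 5.00 bp from the summit. The third, chr20:60078524-60079125, ranked 283 and is intergenic near CDH26, a cadherin. The next 5 had C9orf50, PIAS1 (a SUMO ligase), VPS33B (vesicle traffic), TNS1 (tensin 1, of focal adhesions) and GPC1 (a cell surface proteoglycan) as their nearest genes. Of these 8 GBR, 0 held an AP-1 motif in 1 kb and 5 held a GRE core, beside 40.2% and 27.7% of all lost GBR. All 8 were called in siHic5/siNS and 5 were called in all 4 other lists of the series, KTN1 and ZHX3 among them. Over all lost GBR these shares were 94.1% and 11.7%.

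The strongest kept GBR lies in an intron of HIF3A, a hypoxia-inducible factor subunit, and ranked 1 in siNS/siNS (−log10 p 269) and 34 in siCHD9/siNS. The GBR at the UTR of NFKBIA, which encodes the NF-kB inhibitor IκBα, ranked 3 and 7. The GBR in an intron of the longer FKBP5 transcripts, chr6:35727366-35728538, ranked 5 in siNS/siNS and 1 in siCHD9/siNS. With 1 TSS counted per gene, its nearest TSS was that of ARMC12, at 8.90 kb, and that of FKBP5 lay 39.2 kb away. Starts of the longer FKBP5 transcripts were not counted there. FKBP5 encodes a co-chaperone that dampens GR signaling. Others were near CDKN2AIPNL, OTOS, PRR20G and ARRDC2 and in an intron of IP6K3. Among these 8, 2 held an AP-1 motif and 5 a GRE core, beside 55.5% and 30.7% of all kept GBR. The strongest kept GBR thus resembled the strongest lost GBR in GRE cores and had few AP-1 motifs too. The 5 weakest kept GBR had −log10 p values of 12.6 to 12.7 and lay in an intron of LAD1 (nearest TSS TNNT2) or near CD82, TMEM30B, ZFP36L2 and CSNK1D, and 3 of them held an AP-1 motif.

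The strongest new GBR, chr7:73894759-73895366, ranked 340 in siCHD9/siNS with a −log10 p of 31.1 and lies 34.0 kb from the TSS of TMEM270. The next were 22.2 kb from SYT7 (synaptotagmin 7, a calcium sensor of exocytosis) and 227 kb from DKK1 (a secreted inhibitor of Wnt signaling). The fourth lies in an intron of ZC3H12A, whose product degrades cytokine mRNAs, and the other 4 were nearest to STRIT1, SNX10, TSN and NIPAL2. Of these 8, 7 held an AP-1 motif in 1 kb and 0 held a GRE core, beside 75.9% and 14.6% of all new GBR. All 8 were called in siHic5/siNS, siCHD9/siHic5 and siBRM/siHic5, and 2 in siBRM/siNS. Over all new GBR the shares were 92.4%, 86.1%, 77.8% and 4.43%.

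Among kept GBR, strength ranks in the lists were related, with Spearman's rho of 0.715 across GBR (n = 1255), which describes sites that share 2 pools of libraries and carries no test. Shares with AP-1 and GRE also differed by the shift in rank. Kept GBR were divided by this shift into 4 groups of near equal size. Of the 314 that fell most in rank after CHD9 depletion, 37.3% held an AP-1 motif (32.1 to 42.7%) and 35.4% a GRE core (30.3 to 40.8%). Of the 313 that rose most, 66.8% held AP-1 (61.4 to 71.8%) and 24.9% GRE (20.5 to 30.0%). The shift is bounded by the starting rank, and these groups were not compared at equal strength. Kept GBR with AP-1 without a GRE core had a median −log10 p of 28.8 in siNS/siNS. Those with a GRE core without AP-1 had 41.0. The largest fall, from rank 202 to 1244 among kept GBR, was at a coding exon of TRIOBP (an actin-binding protein). The largest rise, from 1189 to 293, was in an intron of ABHD2 (a lipid hydrolase), where the window held 3 AP-1 motifs.

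Gene positions differed little between the classes. Promoters, within 1 kb of a TSS, held 3.99% of lost, 4.38% of kept and 1.90% of new GBR. Introns held 43.6% of lost and 39.1% of kept GBR, a difference of 4.43 points (0.632 to 8.21) that was not detectable at equal strength (odds ratio 1.11, 0.916 to 1.35). Intergenic DNA held 49.7%, 53.4% and 59.5% of lost, kept and new GBR. The median distance to the nearest TSS was 50.7 kb, 55.3 kb and 61.3 kb. Another GBR of the same list lay within 10 kb of 16.7% of lost and 23.8% of kept GBR, a difference of -7.17 points (-10.3 to -4.07), and at equal strength the odds ratio was 0.871 (0.678 to 1.12). By chromosome, the share lost ran from 41.4% of 58 GBR on chromosome 19 to 75.9% of 29 on chromosome 21, where the Wilson interval was 57.9 to 87.8%.

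Of the 3408 protein-coding genes with a siNS/siNS GBR within 100 kb of the TSS, 1502 (44.1%) had lost GBR only, 1407 (41.3%) kept GBR only and 499 (14.6%) both. The 11 lists of GR-related genes held 215 genes, 101 of which had a GBR of either list within 100 kb. Of the 174 siNS/siNS GBR near them, 71 were lost (40.8%, 33.8 to 48.2%), beside 51.4% of all. Within 50 kb the share was 46.0% (37.1 to 55.2%).

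In the list of genes that glucocorticoids are known to induce, 16 of 51 GBR were lost (31.4%, 20.3 to 45%). These GBR had a median −log10 p of 27.7 in siNS/siNS, against 21.2 over all siNS/siNS GBR, and the part of strength in their lower share was not tested. FKBP5 had 9 GBR within 100 kb, of which 8 were kept, with −log10 p from 34.1 to 218, and 1 was lost, with 15.2. DUSP1, the phosphatase that switches off MAP kinases, kept both of its GBR, 1.34 kb and 98.1 kb upstream. PER1, a repressor of the circadian clock, kept the GBR 2.06 kb upstream, ranked 30, and ZBTB16 and ERRFI1 (an inhibitor of EGF receptor signaling) kept 2 each. MT2A, which encodes a metal-binding metallothionein, kept the GBR 0.235 kb upstream, ranked 10, and 2 others and lost 2 weaker ones, ranked 1292 and 1532. The lost GBR ranked 1292 lies 73.7 kb from the MT2A TSS but 0.193 kb upstream of that of MT1X, a gene of the same list. KLF9, a transcription factor, kept 2 and lost 2, among them a kept GBR 5.46 kb upstream, ranked 97, and a lost one 7.31 kb upstream, ranked 2191. KLF15 lost both GBR in its intron (ranks 1427 and 1498), TSC22D3 (GILZ, a mediator of anti-inflammatory GR action) lost the GBR 98.5 kb downstream of its TSS (rank 1883), and FAM107A lost its GBR 0.177 kb upstream (rank 2429). The ranks of lost and kept GBR overlapped within the list. TIPARP, an ADP-ribosyltransferase, lost a GBR at rank 571 and CEBPB, a C/EBP transcription factor, lost one at rank 895. Kept GBR of KLF9 and ERRFI1 ranked 1737 each, and kept GBR of CEBPB, RGS2 and GADD45A ranked 1990, 2011 and 2198.

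Among genes that restrain inflammation, 10 of 24 GBR were lost. NFKBIA kept both, the GBR at its UTR and one 13.7 kb downstream of the TSS, and SOCS3, an inhibitor of cytokine signaling, lost its GBR (rank 2507). DUSP5 had 1 lost, 1 kept and 1 new GBR. Among adhesion and cytoskeleton genes 10 of 16 GBR were lost (62.5%, 38.6 to 81.5%), including both of ITGB4 (integrin β4) and the GBR 2.93 kb into PXN (paxillin), which also had a new GBR in an intron. Among clock genes 5 of 8 were lost, among genes of ion transport 3 of 7, among fasting metabolism genes 2 of 7 and among bone and matrix genes 5 of 11. AP-1 and ETS factor genes lost 4 of 11, with both GBR of FOSL2 lost and both of JUNB kept. Nuclear receptors and coregulators lost 6 of 14, among them the GBR in an intron of CHD9 itself, survival genes 5 of 14, with 2 of 7 lost at DDIT4, and growth factor signaling genes 7 of 18, with both of SMAD7 lost. Apart from the induced genes, the Wilson intervals of these lists included 51.4%, so no departure from all GBR was detectable in them.

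In the other 4 lists of the series, kept GBR were called most often. In siHic5/siNS, where Hic-5 alone was depleted, 94.1% of lost, 99.7% of kept and 92.4% of new GBR were called, so 146 of the 158 new GBR were also GBR of cells that contained CHD9. In siCHD9/siHic5 the shares were 38.3%, 94.8% and 86.1%, and in siBRM/siHic5, where the remodeler BRM was depleted with Hic-5, they were 69.6%, 97.9% and 77.8%. In siBRM/siNS they were 23.3%, 73.7% and 4.43%. That list and siCHD9/siNS are read against the same siNS/siNS libraries. For comparison with CHD9, 52.2% of siNS/siNS GBR had no siBRM/siNS GBR. Of the lost GBR, 61 (4.60%) were called in none of the 4 lists and 155 (11.7%) in all 4.

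**Figure D5:**
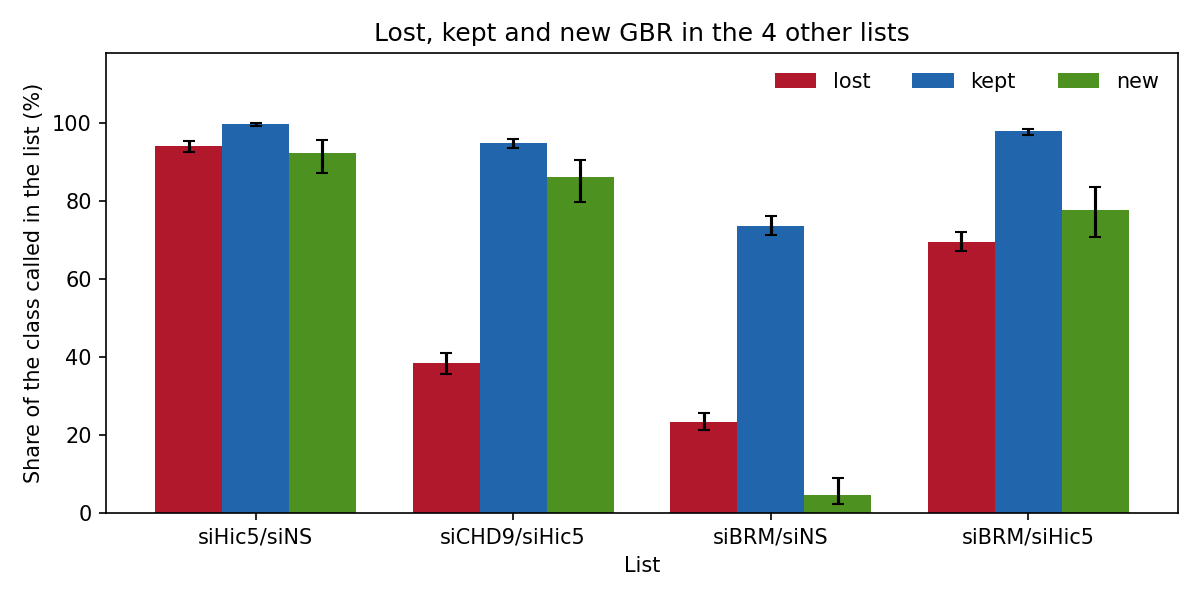
Share of lost, kept and new GBR that overlap a GBR of each of the 4 other lists, with 95% Wilson intervals. Kept GBR are highest throughout, lost GBR are lowest in siCHD9/siHic5 and siBRM/siHic5, and 4.43% of new GBR are called in siBRM/siNS.

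The comparison of siHic5/siNS with siCHD9/siHic5 uses no library of the siNS/siNS and siCHD9/siNS lists. It sets lists with and without CHD9 depletion side by side again, in cells depleted of Hic-5. They differ in length too, with 9533 GBR in siHic5/siNS and 2451 in siCHD9/siHic5. In that comparison 75.4% of all siHic5/siNS GBR had no siCHD9/siHic5 GBR. Among lost GBR that siHic5/siNS called, 506 of 1249 were called in siCHD9/siHic5 (40.5%, 37.8 to 43.3%), and among kept GBR 1188 of 1251 (95%, 93.6 to 96.0%), a difference of 54.5 points (51.4 to 57.3). The difference held at equal strength in siHic5/siNS, with a common odds ratio of 11.9 (8.87 to 15.9). It was 18.4 (12.9 to 26.3) with the 4 lists at a common −log10 q and 13.9 (10.3 to 18.8) in groups by siNS/siNS strength. In the weakest of 5 groups by siHic5/siNS strength 20.0% of lost and 80.0% of kept GBR were called, and in the strongest 78.1% and 100%. The same contrast of kept with lost GBR gave an odds ratio of 6.10 (3.93 to 9.46) for siBRM/siHic5, so it was not limited to lists from CHD9-depleted cells.

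AP-1 content differed in the same direction there, but the comparisons with and without Hic-5 share sites. In siHic5/siNS 1249 lost and 1251 kept GBR were called, so their sequences count in both. Of the siHic5/siNS GBR with no siCHD9/siHic5 GBR, 45% held an AP-1 motif (43.8 to 46.1%), and of those that were called, 58.2% did (56.2 to 60.2%), with an odds ratio of 0.464 at equal strength (0.409 to 0.527). GRE cores, at 17.1% and 26%, gave 0.894 (0.769 to 1.04), on the other side of 1 from the value with Hic-5 present. After BRM depletion with Hic-5 present, against the siNS/siNS list again, AP-1 was at 47.7% of absent and 47.6% of called GBR, an odds ratio of 1.13 (0.908 to 1.40), and GRE cores were at 24.7% and 34.0%, an odds ratio of 0.874 (0.687 to 1.11). The difference between the CHD9 and BRM values was not tested, since both rest on the siNS/siNS list.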

How the data were processed

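GR ChIP-seq was performed in U2OS-GRα cells, 2 libraries and 1 input per siRNA combination. Per the paper and the labels, reads were trimmed and mapped with BWA to GRCh38/hg38, duplicate and mitochondrial reads were removed, and peaks were called with MACS2 and filtered by IDR (versions and IDR threshold not given in the sources used here). Peak names show that the authors pooled the replicates before calling. For each peak the deposited lists give a signal value (fold enrichment by the file format, but enrichment in CPM by the study's description, so used only to rank peaks within a list), the authors' −log10 p-value, and a score that is their −log10 q-value. Depth is unknown from the lists and acts on these values and on which weak peaks were called, so heights were not compared between lists. The lowest −log10 q was 8.88 in siNS/siNS and 7.62 in siCHD9/siNS.

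Lists were overlapped by at least 1 bp. Shares have 95% Wilson intervals, differences Newcombe intervals, and Mantel-Haenszel odds ratios (statsmodels 0.14.6) were taken over 5 groups by −log10 p. Motifs were searched in 1 kb and 200 bp around summits, and genes came from GENCODE release 44, with all 215 listed symbols matched (1 by a synonym). Distances were measured to 1 TSS per protein-coding gene unless stated. Named sites were the 8 strongest lost, kept and new GBR and the 5 weakest kept. Genes from the lists were chosen as those with a GBR within 100 kb. The classes, motifs, gene lists and rules were chosen with earlier results of these data known. Overlap counts of the siNS/siNS and siCHD9/siNS lists were checked against bedtools, and intervals and motif searches were tested on simulated data. Python 3.11.15, pysam 0.24.0 and bedtools 2.31.1 were used. The alternatives were other overlap rules, cutoffs, list sizes, strength measures, motif patterns and windows, TSS sets and distances. Some items, 2 site sequences among them, are not reported here.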

Additional observations from a re-analysis of the deposited data

How the results depend on the processing

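No paired analysis was possible because each list pools both replicates of a condition, and for the same reason no replicate could be left out. The share lost was 57.4% with both lists at the higher of their lowest −log10 q, 56.4% at −log10 q of at least 20, 26.6% among the 1000 strongest GBR of each list and 28.6% at equal list size, and the share new was 7.64%, 5.18%, 26.5% and 28.4%. Other overlap rules left both within their intervals. The AP-1 differences and odds ratios of lost against kept GBR kept their direction under all 11 alternatives, with intervals that left out no difference. Of these, 6 (TGACTCA alone and equal list size for both measures, and 10 strength groups and GC groups crossed with strength groups for the odds ratio) were chosen after seeing the data. For new GBR the AP-1 odds ratio was 2.34 (1.63 to 3.35) in the 200-bp window. Cutoffs, list sizes and strength groups were not varied for new GBR. For GRE, the 200-bp window gave -3.64 percentage points (-7.09 to -0.185), and the palindrome with 2 mismatches an odds ratio of 1.19. The intergenic difference was -3.87 points with the TSS of all transcripts. Spearman's rho was 0.629 by signal. With all 6 lists at −log10 q of 14.2, called in siHic5/siNS were 100% of kept and 98.3% of new GBR, in siCHD9/siHic5 98.1% of kept, in siBRM/siNS 15.1% of lost and 0 of 59 new (upper bound 6.11%), and in siBRM/siHic5 89.5% of lost, 100% of kept and 96.6% of new. Motifs whose intervals include no difference changed direction in some settings. These were the odds ratios of ETS (1.04, common cutoff), RUNX (0.808, 200 bp, and 0.984, signal groups), FOX (1.14, 200 bp, 1.07, common cutoff, and 1.03, 10 groups), the GC box (1.02, signal groups), NF-kB (1.01, signal groups, and 1.12, equal size) and CRE (0.423, equal size), and the differences in points of RUNX (2.58, equal size), C/EBP (-0.345, 200 bp, and -0.790, equal size), NF-kB (-0.509, 200 bp) and CRE (0.133, 200 bp). The causes were not tested. Presence in a list is a yes-or-no call, and a lost GBR may carry GR below the limit of its list.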
